A study of Mus musculus with 6 samples.

Results

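The mTOR kinase works in a pair of protein complexes that set how strongly an activated T cell builds protein and commits to an effector fate. The 10 genes described here encode the kinase (Mtor), the defining subunits of its complexes (Rptor and Rictor), the proteins that restrain it (Tsc1, Tsc2, Ddit4 and Deptor), the GTPase that switches it on (Rheb), and substrates through which it acts (Rps6kb1 and Eif4ebp1). They were taken by gene symbol from a count table of 24047 rows. All 10 had a row, and 9 of them were among the 10454 genes with enough reads to be tested. Deptor was not.

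As background, growth factor and antigen receptor signals reach mTOR complex 1 through PI3K and AKT, which inactivate the TSC complex of Tsc1 and Tsc2. That complex makes Rheb hydrolyse its GTP, and GTP-bound Rheb at the lysosome turns mTOR complex 1 on. Ddit4, also called REDD1, is made under hypoxia, glucocorticoids and other stresses and releases the TSC complex from inhibition. In T cells, loss of Rptor blocks exit from quiescence, while mTOR complex 2, which holds Rictor, phosphorylates AKT and takes part in helper cell differentiation.

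RNA was sequenced from CD4 T cells taken from the spleen at 7 weeks of age, in mice whose strain label is B6.129. There were 3 libraries labelled Srsf1-cKO, from mice with floxed Srsf1 alleles and a dLck.Cre transgene, whose Cre is driven in T cells by the distal promoter of Lck, and 3 libraries labelled WT, for which the labels name neither allele. Naive cells, isolated with a kit for cells bearing CD4 and CD62L, were cultured for 72 h with anti-CD3 at 0.5 µg/mL plus anti-CD28 at 1 µg/mL. Both genotypes then received 100 ng/mL of the phorbol ester PMA with 1 µM of the calcium ionophore ionomycin for 4 h, agents that act downstream of the receptor, so neither was measured at rest. Nothing beyond the mouse number of 3 per genotype says how the libraries relate to cultures.

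The libraries held 8573465 to 10184268 gene counts under the Srsf1-cKO label and 7781283 to 9650828 in WT. Srsf1 itself stood at 4839, 4911 and 5022 counts in the libraries labelled Srsf1-cKO and at 4889, 3520 and 3679 counts in WT, with a log2 fold change of 0.06 (SE 0.12, edgeR adjusted p = 0.780). The targeted gene therefore does not bear out the labels at the level of whole-gene counts, and groups are called by their labels. The T cell markers Cd3d, Cd3e, Cd3g, Cd4, Cd5, Thy1 and Lck were abundant in every library, with a summed 2098 to 3006 CPM (counts scaled to a common library total) under the Srsf1-cKO label and 2454 to 2571 CPM in WT. Of these 7, Cd3g rose (14.3%, against 8.9% of all tested genes called higher). Of 19 markers of other cells, 11 were tested and 4 of them rose (Cd79a, Lyz2, H2-Aa and Cd74). That is 36.4% of those tested, again against 8.9%. The 19 summed to 149 to 169 CPM in the libraries labelled Srsf1-cKO and 87.0 to 114 CPM in WT. Under the Srsf1-cKO label the markers listed for dendritic cells summed to 97.2 to 122 CPM. Those listed for B cells summed to 7.98 to 19.4 CPM and those for myeloid cells to 9.08 to 21.6 CPM. In WT these sums were 52.1 to 77.7, 1.19 to 6.5 and 2.64 to 5.53 CPM. Most of the dendritic cell sum was Cd74, at 74.8 to 85.7 CPM under the Srsf1-cKO label and 35.6 to 53.2 CPM in WT. Itgax, on the same list, held 5, 7 and 13 counts under the Srsf1-cKO label and 0 in each WT library. Which cells carried these RNAs was not tested. The 2 CD8 T cell markers summed to 16.7 to 22.8 CPM under the Srsf1-cKO label and 24.6 to 42.5 CPM in WT. This lower sum was nearly all Cd8b1, which did not pass (edgeR adjusted p = 0.115). Cd8a held 1, 2 and 13 counts under the Srsf1-cKO label and 3, 4 and 3 counts in WT. H2-Ab1, listed for dendritic cells, averaged 12.3 CPM under the Srsf1-cKO label and 15.0 CPM in WT, with overlapping groups. The NK cell marker Ncr1 and the erythroid markers Hba-a1, Hbb-b1 and Alas2 had 0 counts in all 6 libraries, though Hba-a1 averaged 0.65 FPKM under the Srsf1-cKO label and was listed at 0 FPKM in WT. The other NK cell marker, Klrb1c, had 0, 1 and 3 counts under the Srsf1-cKO label and 0, 1 and 1 in WT. The libraries labelled Srsf1-cKO held 26.9 to 27.1 splices per 100 uniquely mapped reads and the WT libraries 27.9 to 30.5. The part of these differences in the results below was not tested.

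Among the 9 tested members, Ddit4 fell in the libraries labelled Srsf1-cKO, and no other member passed edgeR's quasi-likelihood test at an adjusted p under 0.05. In TMM-scaled CPM, Rictor and Tsc1 were lower, and Rheb higher, in every library labelled Srsf1-cKO than in any WT library, without passing. In FPKM the groups of Tsc1 overlapped. One call among 9 is 11.1% of the tested members, against 18.4% of all tested genes called in either direction, 9.5% lower and 8.9% higher. Groups that did not overlap in TMM-scaled CPM were found for 4 of the 9 members (44.4%, 3 lower and 1 higher). They were found for 39.4% of all tested genes (19.5% lower and 19.9% higher). Neither share of the members is read as a result about them. Their median log2 fold change was -0.07, and that of all tested genes 0.01. At an unadjusted p under 0.05, edgeR had 2 members lower (Ddit4 and Rictor) and 1 higher (Rheb). How many of all tested genes passed that threshold was not counted, so this is not read as a result about the members. At an adjusted p under 0.05 DESeq2, which tested all 10 members, called 2 lower and 0 higher, against 2289 of 11704 genes. By limma-voom 1 of 9 was called lower and 0 higher, against 1896 of 10454 genes. The background itself depends on single libraries, since edgeR called 1923 genes with all 6 libraries, but 195 when WT replicate 1 was left out, 234 when Srsf1-cKO replicate 2 was and 1121 when Srsf1-cKO replicate 1 was. With library-size scaling 64.1% of the calls were higher, against 48.4% with TMM scaling.

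**Figure D1:**
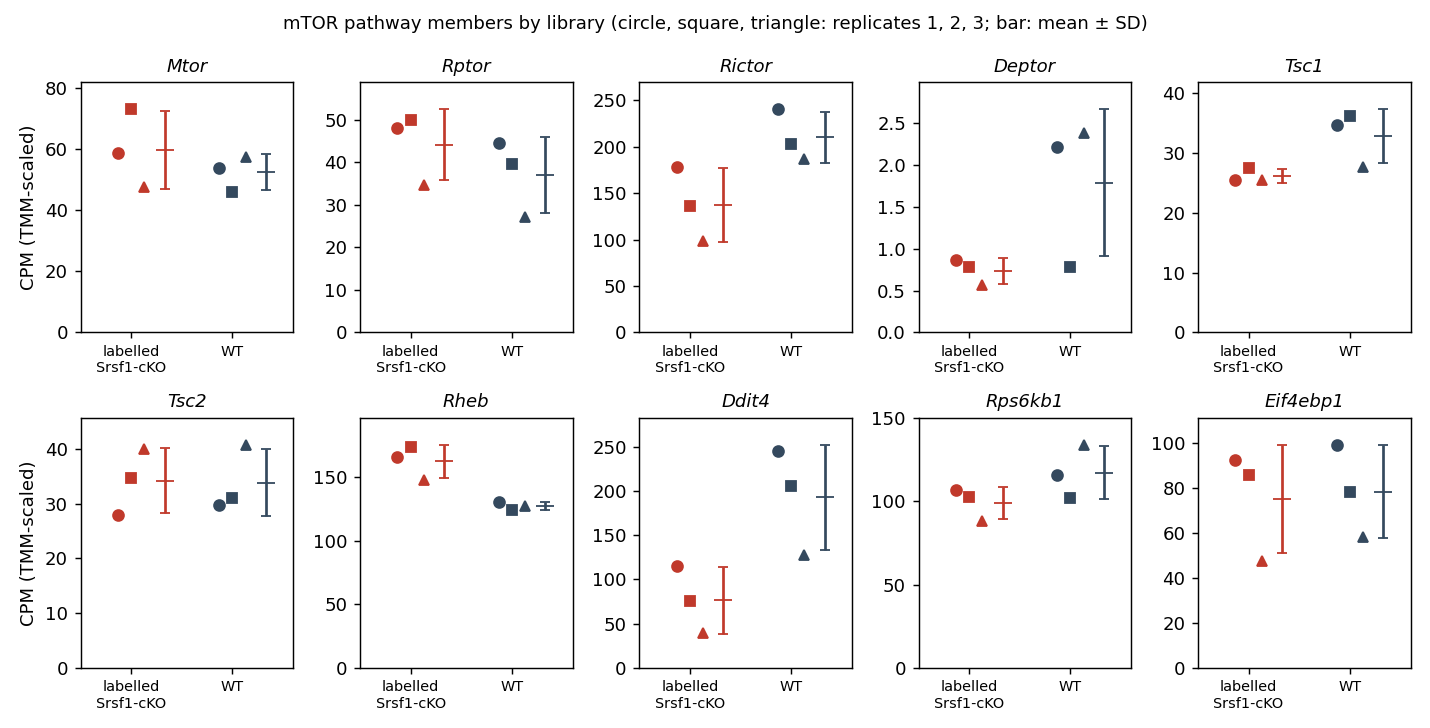
CPM of each of the 10 members (y axis, from 0, TMM-scaled) in the 3 libraries labelled Srsf1-cKO (red, left) and the 3 WT libraries (dark, right), with markers for the replicate number and the mean ± SD beside them. The groups do not overlap for Ddit4, Rictor, Tsc1 and Rheb, and Rheb stands out by its narrow spread.

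Ddit4, the stress-induced brake upstream of the TSC complex, was at 115, 75.3 and 39.3 CPM in the libraries labelled Srsf1-cKO, while the WT libraries had 245, 205 and 128 CPM. Every library labelled Srsf1-cKO lay below every WT library, though Srsf1-cKO replicate 1 and WT replicate 3 were close. The means were 76.5 ± 37.8 CPM under the Srsf1-cKO label and 193 ± 59.8 CPM in WT (SD, n = 3 each). On the log2 scale Ddit4 differed by -1.33 (SE 0.36), with a 95% interval of -2.16 to -0.51 and an edgeR adjusted p of 0.0368, which is 0.397 times the WT level. Ddit4 also varied strongly between replicates. Its SD of log2 CPM within a genotype, 0.65, was above that of 94.5% of tested genes. The call was lost when Srsf1-cKO replicate 2 (edgeR adjusted p = 0.118), Srsf1-cKO replicate 3 (0.0639), WT replicate 1 (0.141) or WT replicate 2 (0.0692) was left out. It was kept when Srsf1-cKO replicate 1 (0.0240) or WT replicate 3 (0.0143) was, and the log2 fold change stayed between -1.75 and -1.02 over these 6. In bulk RNA, fewer cells that express a gene and less of its RNA per cell cannot be told apart.

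The sequence upstream of the start is shown for Ddit4, the member that fell, and for Rheb and Rictor, the members next to it by p-value, which lay in opposite directions. Each is the stretch of 250 bases before the gene's start in RefSeq on GRCm38.p6, read 5′ to 3′ on the gene's strand. The deposited counts were made on mm9, so these positions are not those of the authors' alignment. Promoter entries were found for 8 of the 10 members. Capitals mark matches on either strand to CCAAT (the NF-Y box, ATTGG on the other strand), ACGTG (the core of the hypoxia response element), CACGTG (the E-box, which holds ACGTG on both strands) and TATAA (the TATA box, TTATA on the other strand).
Ddit4, chr10:59951771-59952020, minus strand: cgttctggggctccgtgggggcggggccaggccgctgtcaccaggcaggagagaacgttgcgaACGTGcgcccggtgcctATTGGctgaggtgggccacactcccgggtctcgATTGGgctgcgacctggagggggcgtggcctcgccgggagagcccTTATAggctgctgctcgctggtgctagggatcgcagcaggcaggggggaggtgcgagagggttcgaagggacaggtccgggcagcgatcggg
Rheb, chr5:24842362-24842611, minus strand: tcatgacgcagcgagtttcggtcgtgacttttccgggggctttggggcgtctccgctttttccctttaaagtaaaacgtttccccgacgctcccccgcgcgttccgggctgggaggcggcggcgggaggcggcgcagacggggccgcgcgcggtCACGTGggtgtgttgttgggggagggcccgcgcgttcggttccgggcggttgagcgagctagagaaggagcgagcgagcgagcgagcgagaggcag
Rictor, chr15:6708131-6708380, plus strand: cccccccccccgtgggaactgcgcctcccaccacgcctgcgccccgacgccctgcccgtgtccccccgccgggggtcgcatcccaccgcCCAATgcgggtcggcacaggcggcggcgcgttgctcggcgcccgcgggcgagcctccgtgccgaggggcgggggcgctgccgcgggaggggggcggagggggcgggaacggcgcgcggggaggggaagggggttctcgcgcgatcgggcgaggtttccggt

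The Ddit4 window held 1 hypoxia response core starting 187 bases before the start, 2 NF-Y boxes starting 170 and 137 bases before it, and a TATAA match on the other strand 92 bases before it. Rheb had the E-box, 96 bases before its start, and Rictor 1 NF-Y box, 161 bases before its start. These letters are common, since CCAAT was found in 33.8% of 32851 RefSeq promoter windows of this length, TATAA in 22.8%, ACGTG in 16.6% and CACGTG in 6.0%. Among the 8 members CCAAT was found for Ddit4, Mtor and Rictor, ACGTG for Ddit4, Rheb and Rptor, CACGTG for Rheb and TATAA for Ddit4. The forkhead box TGTTTAC, present in 3.2% of all windows, and the cAMP response element TGACGTCA, present in 1.5%, were in none of the 8. A match describes letters in this window and is not a measured binding site.

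The TSC complex, on which Ddit4 acts, had no member that passed. Tsc1, which stabilises the complex, was at 25.5, 27.5 and 25.5 CPM in the libraries labelled Srsf1-cKO and at 34.7, 36.2 and 27.7 CPM in WT. The groups did not overlap on this scale, but WT replicate 3 lay next to the libraries labelled Srsf1-cKO. In FPKM they overlapped, at 2.47, 2.73 and 2.51 under the Srsf1-cKO label and 3.00, 3.39 and 2.49 in WT. The log2 fold change of -0.33 (SE 0.16, edgeR adjusted p = 0.176) has an interval of -0.69 to 0.03. Tsc2, the subunit with the GTPase-activating domain, was at 27.99, 34.7 and 39.9 CPM under the Srsf1-cKO label, and at 29.7, 31.0 and 40.8 CPM in the WT libraries. These ranges nearly coincide, with a log2 fold change of 0.02 (interval -0.42 to 0.45, edgeR adjusted p = 0.957) that was negative without Srsf1-cKO replicate 3 (-0.11), WT replicate 1 (-0.08) or WT replicate 2 (-0.05). In the GENCODE M21 annotation of GRCm38, 7.2% of the exon bases of Tsc2 are shared with Pkd1 on the opposite strand, and the strand setting of the authors' counting is not known.

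Rheb, the GTPase that the TSC complex turns off, was higher in the libraries labelled Srsf1-cKO, with 166, 173 and 147 CPM, while the WT libraries had 130.3, 124 and 127 CPM. All 3 libraries labelled Srsf1-cKO lay above the 3 WT libraries. The log2 fold change was 0.35 (SE 0.12, 95% interval 0.08 to 0.62, a change of 27.6%), with edgeR adjusted p = 0.0710. Rheb was among the least variable genes between replicates, with a within-genotype SD of 0.09 on the log2 scale that exceeded that of 5.2% of tested genes. Its side of the threshold depended on the scaling. With library-size scaling alone its log2 fold change was 0.45 (edgeR adjusted p = 0.0297), on a scale where the median of all genes moved to 0.11. On log2(FPKM + 1), where FPKM divides the reads of a gene by its transcript length and the library's depth, it was 0.45 (limma adjusted p = 0.0324), in a comparison that called 18.7% of 9617 genes. TMM scaling was not applied there either, and every tested member had a higher log2 fold change on that scale than in the main fit. Without Srsf1-cKO replicate 3 the edgeR adjusted p of Rheb was 0.0482. Over the other 5 libraries left out in turn it lay between 0.120 and 0.257, and over the alternatives that keep all libraries between 0.0297 and 0.124.

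The kinase and the subunit of mTOR complex 1 did not pass. Mtor stood at 58.7, 73.0 and 47.4 CPM in the libraries labelled Srsf1-cKO and at 53.8, 45.9 and 57.4 CPM in WT, so that the WT range reached below and into the other. Its log2 fold change was 0.19 (SE 0.18, interval -0.23 to 0.60, edgeR adjusted p = 0.496). Rptor, the scaffold that brings substrates to mTOR complex 1, was at 48.1, 49.9 and 34.6 CPM under the Srsf1-cKO label and 44.6, 39.5 and 27.1 CPM in WT. In each genotype replicate 3 was the lowest, and the groups overlapped (log2 fold change 0.25, SE 0.22, interval -0.25 to 0.75, edgeR adjusted p = 0.445).

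Rictor, the scaffold of mTOR complex 2, was lower. Its CPM were 178, 136 and 98.8 in the libraries labelled Srsf1-cKO, against 241, 203 and 187 in WT. The groups did not overlap, although Srsf1-cKO replicate 1 came near WT replicate 3. The log2 fold change was -0.61 (SE 0.21, 95% interval -1.09 to -0.14, a change of -34.6%), with edgeR adjusted p = 0.0719. Rictor passed by DESeq2 (adjusted p = 0.0343), with no filter beyond a count above 0 (edgeR adjusted p = 0.0431) and without Srsf1-cKO replicate 1 (0.0335, with a log2 fold change of -0.84). Over the other 5 libraries left out in turn the adjusted p was between 0.0538 and 0.227. Over the alternatives that keep all libraries and have no replicate term it was between 0.0343 and 0.178. With a replicate term Rictor passed as well (edgeR adjusted p = 0.0163), though whether the replicate numbers pair the libraries is not settled. Deptor, which binds and inhibits both complexes, held 8, 7 and 6 counts in the libraries labelled Srsf1-cKO and 20, 6 and 18 counts in WT. In CPM the WT library with 6 counts, at 0.780, lay within the range of the libraries labelled Srsf1-cKO (0.563 to 0.864). With no filter its log2 fold change was -1.29 (interval -2.44 to -0.14, edgeR adjusted p = 0.124). In the same annotation 3.4% of its exon bases are shared with Gm9920 on the opposite strand.

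**Figure D2:**
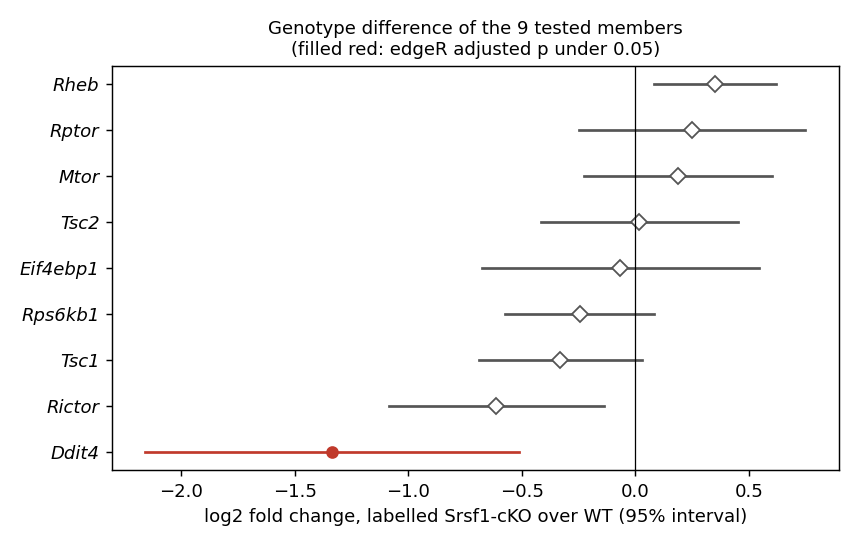
Log2 fold change of the 9 tested members (x axis, libraries labelled Srsf1-cKO over WT) with the 95% confidence interval, ordered from high to low. Ddit4 at -1.33 is the member past an edgeR adjusted p of 0.05, while the intervals of Rheb and Rictor also leave out 0 and those of the other 6 include it.

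Rps6kb1, the kinase S6K1 that mTOR complex 1 phosphorylates, was at 107, 102 and 88.2 CPM in the libraries labelled Srsf1-cKO and 116, 102 and 134 CPM in WT. Both groups held a library at 102 CPM, and the log2 fold change was -0.24 (SE 0.15, interval -0.57 to 0.08, edgeR adjusted p = 0.263). Of its exon bases 1.8% are shared with Rnft1 on the opposite strand, a gene that rose (67.4 CPM under the Srsf1-cKO label and 33.2 CPM in WT, log2 fold change 1.02, edgeR adjusted p = 0.00648). Eif4ebp1, the translation repressor 4E-BP1 that phosphorylation by mTOR complex 1 inactivates, was at 92.4, 85.6 and 47.4 CPM under the Srsf1-cKO label and 99.2, 78.2 and 58.1 CPM in WT. The ranges overlapped almost wholly, with replicate 3 the lowest of each genotype. Its log2 fold change of -0.07 (SE 0.27, interval -0.68 to 0.55, edgeR adjusted p = 0.886) does not set a direction, since it was 0.04 with library-size scaling, 0.03 on log2(FPKM + 1), 0.18 when Srsf1-cKO replicate 3 was left out and 0.12 when WT replicate 1 was. The within-genotype SD of Eif4ebp1, 0.46 on the log2 scale, exceeded that of 85.4% of tested genes.

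Per unit of transcript length, the members spanned several levels. In FPKM, the libraries labelled Srsf1-cKO had Rheb first (88.2 ± 7.73), then Eif4ebp1 (70.5 ± 22.8) and Ddit4 (38.0 ± 18.3), while WT had Ddit4 first (88.6 ± 25.7), then Eif4ebp1 (67.7 ± 16.02) and Rheb (64.4 ± 1.04; SD, n = 3 each). The ranges of neighbours among these 3 overlapped in both genotypes. Next came Rps6kb1 (13.8 ± 1.35) and Rictor (10.9 ± 3.05) in the libraries labelled Srsf1-cKO, and Rictor (15.5 ± 1.62) and Rps6kb1 (15.3 ± 2.02) in WT, again with overlapping ranges. Mtor, Rptor, Tsc2 and Tsc1 had mean levels between 2.57 and 5.13 FPKM under the Srsf1-cKO label and between 2.96 and 4.21 FPKM in WT. Among these 4 the ranges of neighbours in the order overlapped, except those of Tsc2 and Tsc1 in the libraries labelled Srsf1-cKO. Deptor was last, at 0.0668 ± 0.0139 FPKM under the Srsf1-cKO label and 0.149 ± 0.0711 FPKM in WT. The 3 leading genes stood above 89.8% to 91.7% of tested genes by their mean FPKM over all libraries, and Mtor, the kinase itself, above 34.6%.

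Ratios of members within a library do not depend on scaling. The log2 ratio of Rptor to Rictor was -1.89, -1.44 and -1.51 in the libraries labelled Srsf1-cKO, against -2.43, -2.36 and -2.79 in WT. All 3 libraries under the Srsf1-cKO label lay above the WT libraries, with means of -1.62 ± 0.24 under that label and -2.53 ± 0.23 in WT (SD, n = 3 each) and a difference of 0.91. From FPKM, which divide by transcript length, the difference was 0.90, and the ratio itself was -1.195 ± 0.24 under the Srsf1-cKO label and -2.09 ± 0.23 in WT. The mRNA of the mTOR complex 2 scaffold was thus the more abundant per length in every library, by less in those labelled Srsf1-cKO. The difference is a description without a test, as are those that follow. Rheb to Tsc2 was 2.26 ± 0.34 under the Srsf1-cKO label and 1.92 ± 0.25 in WT. Tsc1 to Tsc2 was -0.37 ± 0.26 under that label and -0.04 ± 0.45 in WT, and Rps6kb1 to Eif4ebp1 0.45 ± 0.38 under it and 0.61 ± 0.53 in WT. The groups overlapped for these other ratios, and in each of them replicate 3 was at the same extreme of its genotype.

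**Figure D3:**
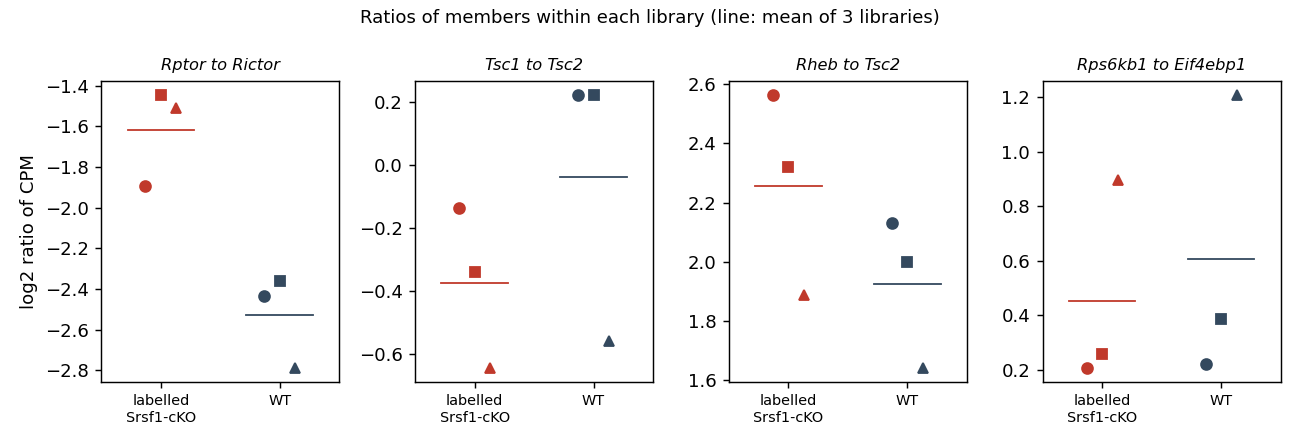
Log2 ratio of the CPM of 2 members within each library (y axis), with the 3 libraries labelled Srsf1-cKO in red on the left and the 3 WT libraries on the right, and a line at each group's mean. Rptor to Rictor separates the groups, at -1.89 to -1.44 under the Srsf1-cKO label and -2.79 to -2.36 in WT, and the other 3 ratios overlap.

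The genes whose pattern over the 6 libraries was nearest to that of Ddit4 were sought among 8032 others whose log2 CPM averaged 3 or more. The measure was the root mean square difference of log2 CPM, each gene centred on its own mean. Nearest were Klhl24, a substrate adaptor of a ubiquitin ligase (0.22), Pim2, a kinase that promotes survival and translation (0.24), Sdc4, the proteoglycan syndecan 4 (0.26), Pnrc1, a nuclear receptor coactivator (0.26), and Rad52, a DNA repair factor (0.27). Since they were picked for this likeness in the same 6 libraries, their difference between genotypes follows from the choice and is given as a description. Their log2 fold changes lay between -1.81 for Sdc4 and -1.16 for Pim2. Pim2 was at 196 CPM in the libraries labelled Srsf1-cKO and 439 CPM in WT, and Pnrc1 at 146 CPM under the Srsf1-cKO label and 462 CPM in WT. As in Ddit4, and by the same choice, replicate 3 was the lowest library of each genotype. The pattern of Mtor was nearest to that of Fbxo31 (0.04), Epg5 (0.07), Nlk (0.07), Hspd1 (0.08) and Zw10 (0.08).

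**Figure D4:**
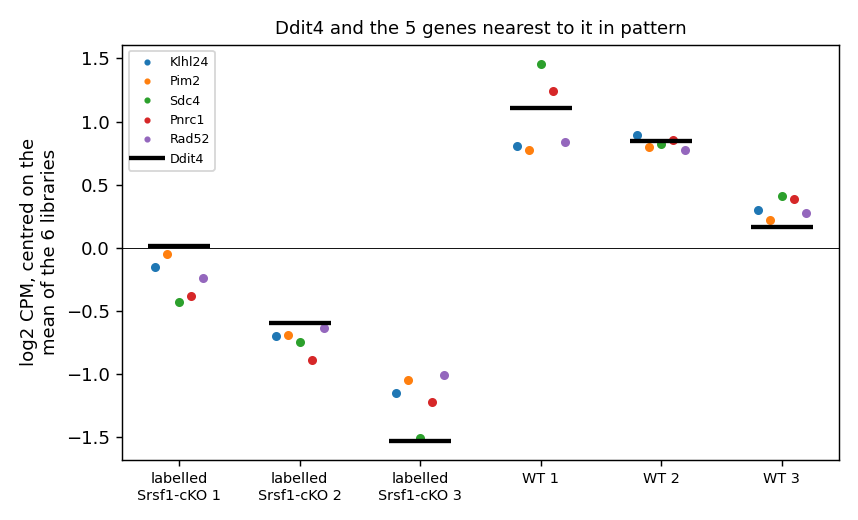
Log2 CPM of Ddit4 (black bars) and the 5 genes nearest to it in pattern (coloured points), each centred on its mean over the 6 libraries (y axis), with the 3 libraries labelled Srsf1-cKO on the left and WT on the right. Ddit4 spans -1.53 in Srsf1-cKO replicate 3 to 1.10 in WT replicate 1.

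Genes that are known to share inducers with Ddit4 did not move one way. Of 16 tested, 3 fell and 1 rose (25.0%), with a median log2 fold change of -0.25. Among all tested genes 18.4% were called, 9.5% lower and 8.9% higher. Tsc22d3, the glucocorticoid-induced leucine zipper gene, fell to 11.2 ± 2.71 CPM in the libraries labelled Srsf1-cKO, against 26.5 ± 8.31 in WT (log2 fold change -1.24, edgeR adjusted p = 0.0198). Fkbp5, also induced by glucocorticoids, rose, at 128 ± 18.2 CPM under the Srsf1-cKO label and 86.4 ± 4.75 CPM in WT (0.57, edgeR adjusted p = 0.0271). The stress factor gene Atf3 fell to 64.0 ± 9.71 CPM under the Srsf1-cKO label, against 118 ± 23.8 in WT, and Vegfa, the angiogenic factor gene induced by hypoxia, to 98.7 ± 32.6 CPM, against 183 ± 31.9 in WT (edgeR adjusted p = 0.0148 and 0.0377). Asns, asparagine synthetase, the most abundant per length, did not pass (358 ± 136 CPM under the Srsf1-cKO label and 266 ± 9.12 CPM in WT, edgeR adjusted p = 0.265).

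Upstream, 2 of 17 tested genes of the PI3K and AKT arm passed (11.8%), both lower, with a list median of -0.19. The share of all tested genes was 18.4%, with 9.5% lower and 8.9% higher. Inppl1, the 5-phosphatase SHIP2, fell to 39.0 ± 0.527 CPM, against 59.1 ± 11.7 in WT (edgeR adjusted p = 0.0404). Akt2, the most abundant of the list per length, was at 93.5 ± 12.2 CPM under the Srsf1-cKO label and 90.5 ± 12.8 CPM in WT (edgeR adjusted p = 0.850). Other subunits and assembly factors of the mTOR complexes held 0 of 9 calls by edgeR, against 18.4% of all tested genes. At an unadjusted p under 0.05 edgeR had 1 lower and 1 higher, without a count over all genes to set beside them. DESeq2 called 1 of 10 after adjustment, against 2289 of 11704 genes. Tti2, an assembly factor and the most abundant of them per length, was at 34.1 ± 8.09 CPM in the libraries labelled Srsf1-cKO and 35.6 ± 3.67 CPM in WT.

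The amino acid sensing arm, which carries mTOR complex 1 to the lysosome, held calls in both directions, with 3 of 30 tested genes lower, 5 higher and 22 not called (26.7% called, against 18.4% of all tested genes) and a median of -0.01. The GATOR1 complex turns off the Rag GTPases, and GATOR2 restrains GATOR1. Nprl2 of GATOR1 fell to 5.25 ± 0.973 CPM, against 11.5 ± 1.37 in WT (log2 fold change -1.13, edgeR adjusted p = 0.0140). Its partner Nprl3, chosen after its value was seen, rose (9.32 CPM under the Srsf1-cKO label and 4.64 CPM in WT, log2 fold change 1.01, edgeR adjusted p = 0.0300). Wdr24 of GATOR2 fell to 7.35 ± 0.393 CPM, against 14.5 ± 1.02 in WT (-0.97, edgeR adjusted p = 0.0119). Sec13, shared by GATOR2, the nuclear pore and vesicle coats and the most abundant of the list per length, rose, at 109 ± 13.6 CPM under the Srsf1-cKO label and 72.8 ± 3.62 in WT (0.58, edgeR adjusted p = 0.0227). Wdr59 of GATOR2, also chosen after its value was seen, rose by 0.53 (edgeR adjusted p = 0.0454). Other subunits of these complexes did not pass, with log2 fold changes of -0.36 for Depdc5 of GATOR1 (edgeR adjusted p = 0.167), 0.12 for Mios (0.651) and -0.0041 for Seh1l (0.991) of GATOR2. The folliculin partners moved apart, with Fnip1 lower at 83.5 ± 2.99 CPM under the Srsf1-cKO label, against 120.1 ± 8.02 in WT, and Fnip2 higher at 43.8 ± 3.97 CPM, against 27.0 ± 3.62 in WT (edgeR adjusted p = 0.0207 and 0.0211). Rragd, the Rag GTPase gene RagD, rose by 0.55 (edgeR adjusted p = 0.0258).

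In the energy sensing arm 1 of 12 tested genes fell and 1 rose (16.7% called, against 18.4% of all tested genes), with a median of -0.07. Stk11, the gene of LKB1, which activates the AMP-activated kinase, was at 25.2, 25.4 and 24.5 CPM in the libraries labelled Srsf1-cKO, against 40.2, 37.2 and 36.6 CPM in WT. The replicates lay close together in each genotype (log2 fold change -0.60, SE 0.14, edgeR adjusted p = 0.0215). Prkaa2, which encodes a catalytic subunit of that kinase, rose on few reads, with 13, 30 and 20 counts under the Srsf1-cKO label and 3, 4 and 5 counts in WT (2.12, SE 0.52, edgeR adjusted p = 0.0250). Cab39, a partner of LKB1 and the most abundant of the list per length, was at 494 ± 19.1 CPM under the Srsf1-cKO label and 485 ± 139 CPM in WT (edgeR adjusted p = 0.941).

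Among other effectors and targets of mTOR, 6 of 23 tested genes passed by edgeR (26.1%), with 6 lower, 0 higher and a median of -0.11. Of all tested genes 18.4% were called, 9.5% lower and 8.9% higher. In this list DESeq2, with 24 tested, and limma-voom each called 6 lower and 1 higher, as did edgeR with upper-quartile scaling. Over all genes these called 2289 of 11704, 1896 of 10454 and 1873 of 10454. Maf1, the repressor of RNA polymerase III, was at 32.0, 31.0 and 32.9 CPM in the libraries labelled Srsf1-cKO, against 61.6, 54.6 and 57.5 CPM in WT. The spread in each genotype was small beside the difference (log2 fold change -0.86, SE 0.13, edgeR adjusted p = 0.00801). Rps6, the ribosomal protein that S6K1 phosphorylates and the most abundant of the list per length, fell to 824 ± 80.7 CPM, against 1346 ± 112 in WT. Ribosomal protein genes have many near-identical pseudogene copies, so this count is uncertain. Ulk1, which starts autophagy, fell to 15.2 ± 1.74 CPM, against 24.8 ± 3.09 in WT, and Lpin1, a phosphatidate phosphatase, to 71.1 ± 11.7 CPM, against 129 ± 35.5 in WT. The transcription factor genes Foxo3 (18.6 ± 1.197 CPM under the Srsf1-cKO label, 28.2 ± 3.49 in WT) and Tfe3 (29.8 ± 2.76 CPM under that label, 42.1 ± 0.674 in WT) fell as well, with edgeR adjusted p between 0.0111 and 0.0422 for these 5. With library-size scaling 4 of this list were lower and 2 higher, and of the PI3K and AKT list 1 and 1.

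The calls in these lists depend on single libraries, as do those of all genes. Without Srsf1-cKO replicate 1, 2 and 3 edgeR called 1121 of 10618, 234 of 10642 and 1376 of 10548 genes. Without WT replicate 1, 2 and 3 it called 195 of 10606, 1989 of 10664 and 1978 of 10667. The counts that follow are not read as results about the lists. The 20 changed genes that the naming rule takes kept their direction in all 6 fits that leave out a library. That follows from the choice, since they were called in these libraries and their groups did not overlap in TMM-scaled CPM. Of the 20 genes, 0 passed without Srsf1-cKO replicate 2, and 1 gene, Maf1, when WT replicate 1 was left out. Without Srsf1-cKO replicate 1, Srsf1-cKO replicate 3, WT replicate 2 and WT replicate 3, 11, 12, 15 and 18 passed. Tfe3 passed in 0 of these 6 fits (edgeR adjusted p up to 0.186), Foxo3 and Inppl1 in 1 each, and Maf1 in 5. The amino acid sensing list had 3, 0, 5 and 0 calls without Srsf1-cKO replicate 1, 2 or 3 or WT replicate 1, and the effector list 3, 0, 2 and 1. The PI3K and AKT list had 1, 0, 0, 4 and 1 calls without Srsf1-cKO replicate 1 or 2 or WT replicate 1, 2 or 3, the energy list 1, 0 and 0 without the first 3 of these, and the list of genes that share inducers with Ddit4 had 0 without Srsf1-cKO replicate 2 or WT replicate 1. The other complex subunits had 2 calls without WT replicate 2.

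**Figure D5:**
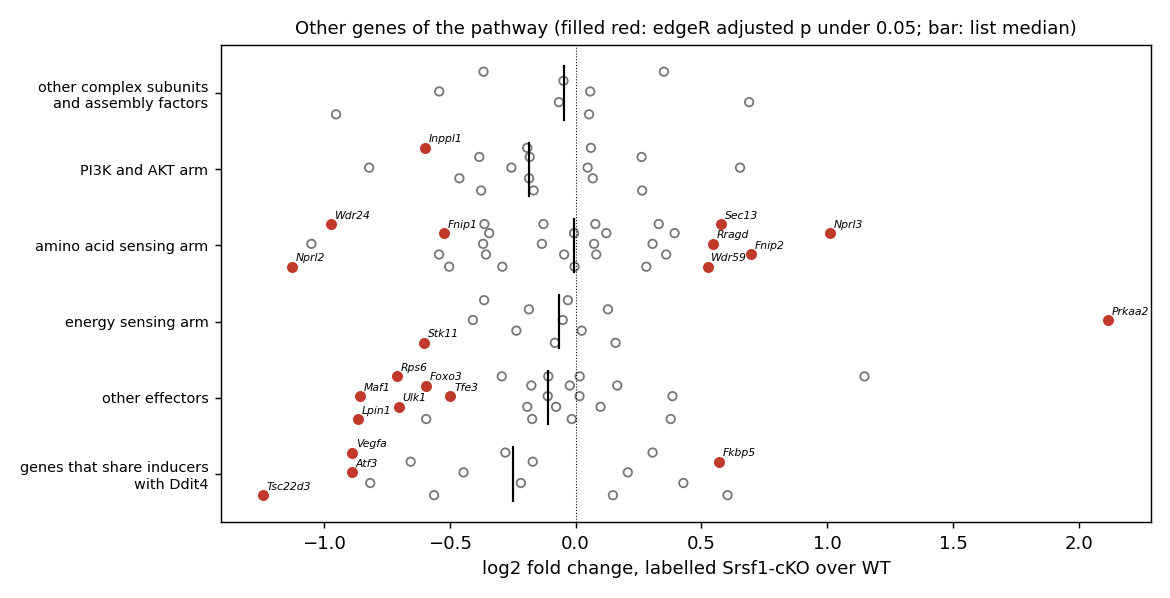
Log2 fold change (x axis, libraries labelled Srsf1-cKO over WT) of the tested genes of each other list of the pathway (rows; 1 called gene of the PI3K and AKT arm is not drawn), with genes past an edgeR adjusted p of 0.05 in filled red and named, the rest open, and a bar at the list's median. The effector list has 6 of 23 genes called by edgeR, with 0 higher, and the amino acid sensing list 3 lower and 5 higher. Of all tested genes 9.5% were called lower and 8.9% higher.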

How the data were processed

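The authors deposited whole-number read counts per gene for 6 libraries, FPKM values for 24043 rows and an alignment report that names STAR 2.4.2a in its header. STAR, Cufflinks and mm9 are named per the submitters' processing notes. The sources used here do not name the annotation, the counting program or its strand setting. The FPKM unit of the deposited table was read from its values. Counts were tested with edgeR 4.0.16 (R 4.3.3, quasi-likelihood test, filterByExpr, TMM scaling, genotype as the only term), two-sided, with Benjamini-Hochberg adjustment over all 10454 genes tested. Intervals are at 95%. The alternative on FPKM used limma 3.58.1 after log2(FPKM + 1), keeping genes whose FPKM reached 1 in 3 or more libraries, a scale that understates changes of low genes. DESeq2 1.42.0 and limma-voom are alternatives. The scripts were tested on simulated counts. All per-sample columns were used.

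Replicates differed by more than sampling noise (chi-square per degree of freedom 6.53 to 38.9). Where nothing shows separate cultures, p-values measure the spread between these libraries. The 10 genes and the lists were chosen with earlier results of these data known. Named are all 10 genes, up to 6 called genes and the most abundant per length of each list, and the 5 genes nearest in pattern to Ddit4 and Mtor. One called gene of the PI3K and AKT list is counted but not reported here. Castor1 and Castor2 were matched by older symbols. Sequences come from RefSeq.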

Additional observations from a re-analysis of the deposited data

How the results depend on the processing

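The log2 fold change of Ddit4 kept its sign under all 17 alternatives run, between -1.75 and -1.02 with a library left out and between -1.42 and -1.23 otherwise. Its groups did not overlap in CPM or FPKM and the alternatives reuse the same libraries, so the sign could hardly change. Ddit4 did not pass on log2(FPKM + 0.1) (-1.30, limma adjusted p = 0.0510) or on log2(FPKM + 1) without a filter (-1.28, limma adjusted p = 0.108). Over all alternatives its adjusted p lay between 0.000937 and 0.141. The number of members called lower, 1, was 2 with no filter beyond a count above 0, by DESeq2 and with a replicate block, in each case with Rictor, and 0 in these 2 FPKM fits. The number called higher, 0, was 1 (Rheb) with library-size scaling and in the 3 FPKM fits. With a library left out these numbers were 0 to 2 and 0 to 1. All genes called, 1923, were 1146 on log2(FPKM + 1) without a filter, where 15192 genes were tested, and 195 to 1989 with a library left out. They were 2172 of 15114 with no filter beyond a count above 0, 2289 of 11704 by DESeq2 and 2270 of 10454 with the replicate block. With library-size scaling they were 1977 of 10454, and on log2(FPKM + 1) and log2(FPKM + 0.1) 1801 and 1774 of 9617. Eif4ebp1 changed sign with library-size scaling (0.039) and in the FPKM fits (0.029, 0.028 and 0.029), and lay between -0.26 and 0.18 with a library left out, and Tsc2 between -0.11 and 0.16. The cause was not tested. Rictor was at -0.64 with the replicate block (edgeR adjusted p = 0.0163) and Ddit4 at -1.41 (0.00198). Whether the replicate numbers pair the libraries is not settled. Deviations of same-numbered libraries correlated at 0.22, 0.01 and 0.27 over genes. Srsf1-cKO replicate 1 correlated nearly as much with WT replicate 2 (0.20), and Srsf1-cKO replicate 2 more with WT replicate 1 (0.06). Srsf1-cKO replicate 3 correlated at -0.21 and -0.16 with WT replicates 1 and 2. WT replicate 3 correlated at -0.32 and -0.05 with Srsf1-cKO replicates 1 and 2. A factor shared by the libraries numbered 3 was not tested. Leaving out a library from the other lists was chosen after seeing the data. At this depth Deptor, with 6 to 20 counts a library, could not be tested under the filter used.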
